A study of Rattus norvegicus with 6 samples.

Results

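The neuropeptides somatostatin (Sst), cortistatin (Cort), neuropeptide Y (Npy), vasoactive intestinal peptide (Vip), cholecystokinin (Cck) and corticotropin-releasing hormone (Crh), the calcium-binding proteins parvalbumin (Pvalb), calbindin (Calb1) and calretinin (Calb2), and the extracellular glycoprotein reelin (Reln) are the classic molecular labels of cortical GABA interneurons. Their mRNAs were examined in the prelimbic cortex (PL) of male Sprague Dawley rats on day 14 after spared nerve injury (SNI), a model of neuropathic pain. The 10 genes were taken by name, and a gene was counted as measured where a probe set, a group of short probes against 1 transcript, carried its symbol and no other in the platform annotation. This left 9 genes on 10 probe sets, out of 14217 genes and 31042 probe sets tested. Cort had no probe set of its own, since each of the 4 probe sets that list it also list other genes, and it has no value here.

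The SNI group (3 samples) had the tibial and common peroneal branches of the left sciatic nerve cut and the sural branch spared. The other 3 samples are labelled only as control. The methods describe a sham group with exposed, uncut nerves, but do not say that the control arrays came from it. The labels name isoflurane and the methods pentobarbital as the anesthetic, and by the methods the rats were several weeks old when acquired and the PL of the side opposite to the injury was dissected. The question is how the PL differs between rats with and without neuropathic pain. Whether each sample is 1 rat, a pool, or shares a rat with another is stated neither in the labels nor in the methods, and the p-values therefore rest on a spread between samples that could be technical.

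Inhibitory interneurons are a minority of cortical neurons and fall into classes that the genes above tell apart. Pvalb marks fast-spiking cells that contact the soma and axon of pyramidal neurons, Sst marks cells that contact their dendrites, and Vip marks cells that mainly inhibit other interneurons. Npy and Cort are found in parts of the Sst class, Npy and Reln also in neurogliaform cells, and Cck in a separate class of basket cells. The markers are not all confined to interneurons, since pyramidal neurons also make Cck and some make Calb1. Peptide and calcium-binding protein mRNAs vary with neuronal activity, and in a piece of tissue fewer cells of a class and less mRNA per cell cannot be told apart.

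In the deposited log2 values each probe set is set to a median of 0 over the 6 samples, so the genes can be compared between samples but not ranked by abundance, and it cannot be read whether an mRNA was detected at all. The same holds for the markers of cortex. All values below are on this log2 scale, and a difference is SNI minus control.

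Promoter sequences of 6 of the 10 genes (Sst, Cort, Npy, Vip, Pvalb and Reln) were found in the RefSeq table of the GRCr8 build. Stretches of 3 are shown, because the values of Reln separated the groups most clearly, and and because cyclic AMP response elements are well known in the peptide genes Sst and Vip. Positions are counted from the annotated transcription start. Whether that start is the one used in the PL was not tested, so a position does not show that a match is transcribed. For Sst (chr11:90461446-90461575, plus strand, positions −100 to 30) the capitals mark TGACGTCA, the palindromic form of the element. For Vip (chr1:44470350-44470509, plus strand, positions −130 to 30) they mark the half-site TGACG. For Reln (chr4:13628318-13628437, plus strand, positions −250 to −131) they mark 2 overlapping copies of GCGGGGGCG, a core sequence bound by Egr transcription factors.
Sst: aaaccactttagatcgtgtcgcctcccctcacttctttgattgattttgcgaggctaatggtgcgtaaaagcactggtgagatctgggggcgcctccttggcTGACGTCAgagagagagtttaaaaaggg
Vip: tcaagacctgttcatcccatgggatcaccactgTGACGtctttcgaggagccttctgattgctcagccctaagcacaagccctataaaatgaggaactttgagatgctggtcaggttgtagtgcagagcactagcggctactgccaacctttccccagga
Reln: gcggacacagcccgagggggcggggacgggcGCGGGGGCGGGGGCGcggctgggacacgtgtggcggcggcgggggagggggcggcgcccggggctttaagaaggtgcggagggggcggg
Both strands were searched over 300 bases of each promoter. The palindrome TGACGTCA, which holds the half-site on both strands, was found in Sst alone of the 6 promoters, at positions 3 to 10, and in 1.83% of all 33469 promoters. The half-site TGACG was found in Sst, Cort, Vip and Pvalb and in 21.2% of all promoters. The Egr core, searched as GCGTGGGCG or GCGGGGGCG, was found in Reln alone of the 6, at positions −219 to −211 and −213 to −205, where it overlaps a GC box core (GGGCGG), and in 3.2% of all promoters. The Reln promoter was also the richest in G and C of the 6, at 79% with 47 CpG dinucleotides, against 44% and 4 in Vip and a median of 51.7% and 7 over all promoters. A match is only a match of letters in this window.

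Reln, which encodes a secreted protein that guides neuronal migration and in the adult cortex acts on synapses, was the gene with the clearest separation of the groups. On probe set 1369093_at the SNI samples 1, 2 and 3 were at −0.27, −0.11 and −0.088, and the control samples 1, 2 and 3 at 0.21, 0.088 and 0.20. Every SNI sample lay under every control sample. On probe set 1373957_at the SNI samples were at −0.16, −0.036 and −0.080, and the control samples at 0.036, 0.15 and 0.19, again without overlap. The differences were −0.32 (SE 0.07) and −0.22 (SE 0.07), so that both probe sets gave the same sign and a similar size. As the mean of both, Reln averaged −0.12 ± 0.08 after SNI and 0.15 ± 0.04 in controls (mean ± SD over 3 samples each). The difference of the gene means was −0.27 (95% confidence interval −0.41 to −0.13), which corresponds to 0.829 of the control level on the linear scale. By limma the unadjusted p was 0.00229 and the adjusted p = 0.1998 over all genes, so Reln did not pass the test. A smaller p was found for 1.1% of all genes. With each sample left out in turn the difference lay between −0.30 and −0.22 and its unadjusted p between 0.00358 and 0.0109.

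Pvalb, a fast calcium buffer, had the largest difference of the 9 genes but also a wide spread. The SNI samples were at −0.35, 0.044 and −0.12, and the control samples at −0.020, 0.020 and 0.42. SNI sample 2 lay above control samples 1 and 2, and the ends of the range were held by SNI sample 1 and control sample 3. The difference was −0.28 (95% confidence interval −0.60 to 0.036, limma adjusted p = 0.436), smaller than the range within the SNI group (0.40) and within the control group (0.44). Without control sample 3 it was −0.14, and without SNI sample 2 it was −0.37.

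The other calcium-binding proteins gave smaller differences. For Calb1, a buffer of interneurons and of superficial pyramidal neurons, the SNI samples were at 0.011, −0.015 and −0.011 and the control samples at 0.075, −0.025 and 0.038, and the groups overlapped. Its difference was −0.034 (95% confidence interval −0.16 to 0.088), a narrower interval than those of Pvalb and Calb2. For Calb2, found in many Vip cells, the SNI samples were at 0.0061, −0.071 and 0.10 and the control samples at −0.14, 0.42 and −0.0061. Control sample 2 stood far above the other 5. The difference of −0.080 (95% confidence interval −0.39 to 0.23) became 0.085 without that sample, so Calb2 has no stable direction.

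Among the peptides, Sst, an inhibitory peptide released onto dendrites, came closest to the threshold. The SNI samples were at −0.17, 0.014 and −0.060 and the control samples at −0.014, 0.12 and 0.17. Only SNI sample 2 and control sample 1 crossed between the groups. The difference was −0.17 (95% confidence interval −0.34 to 0.0029, unadjusted p = 0.0532, limma adjusted p = 0.386). Without control sample 1 it was −0.22, with an unadjusted p = 0.0176 and an adjusted p = 0.323, and without SNI sample 1 it was −0.12 (unadjusted p = 0.185).
Crh, the releasing hormone of the stress axis, which in cortex is made by interneurons, was at −0.19, 0.10 and −0.075 in the SNI samples and at −0.057, 0.057 and 0.55 in the control samples. The high value of control sample 3 carried most of the difference, which was −0.24 (95% confidence interval −0.59 to 0.12, limma adjusted p = 0.561) with all samples and −0.053 without that sample. Without control sample 1 it was −0.35 (unadjusted p = 0.0491).
Npy, a peptide that dampens excitatory transmission, was at −0.27, 0.069 and −0.069 in the SNI samples and at 0.069, −0.096 and 0.17 in the control samples. The groups overlapped widely, and the difference of −0.14 (95% confidence interval −0.37 to 0.096) shrank to −0.047 without SNI sample 1 and to −0.078 without control sample 3.
For Cck, the peptide of the second class of basket cells, the SNI samples were at −0.15, −0.00072 and −0.051 and the control samples at 0.039, 0.00072 and 0.046. The groups did not overlap, but SNI sample 2 and control sample 2 lay almost on each other, and the difference was −0.097 (95% confidence interval −0.23 to 0.039, limma adjusted p = 0.5305).
Vip was the single gene of the 9 above 0. The SNI samples were at −0.039, 0.0021 and 0.016 and the control samples at −0.0021, −0.075 and 0.039. The difference was 0.0060 with a 95% confidence interval of −0.12 to 0.13, and it moved below 0 when SNI sample 3 (−0.0055) or control sample 2 (−0.025) was left out.

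**Figure D1:**
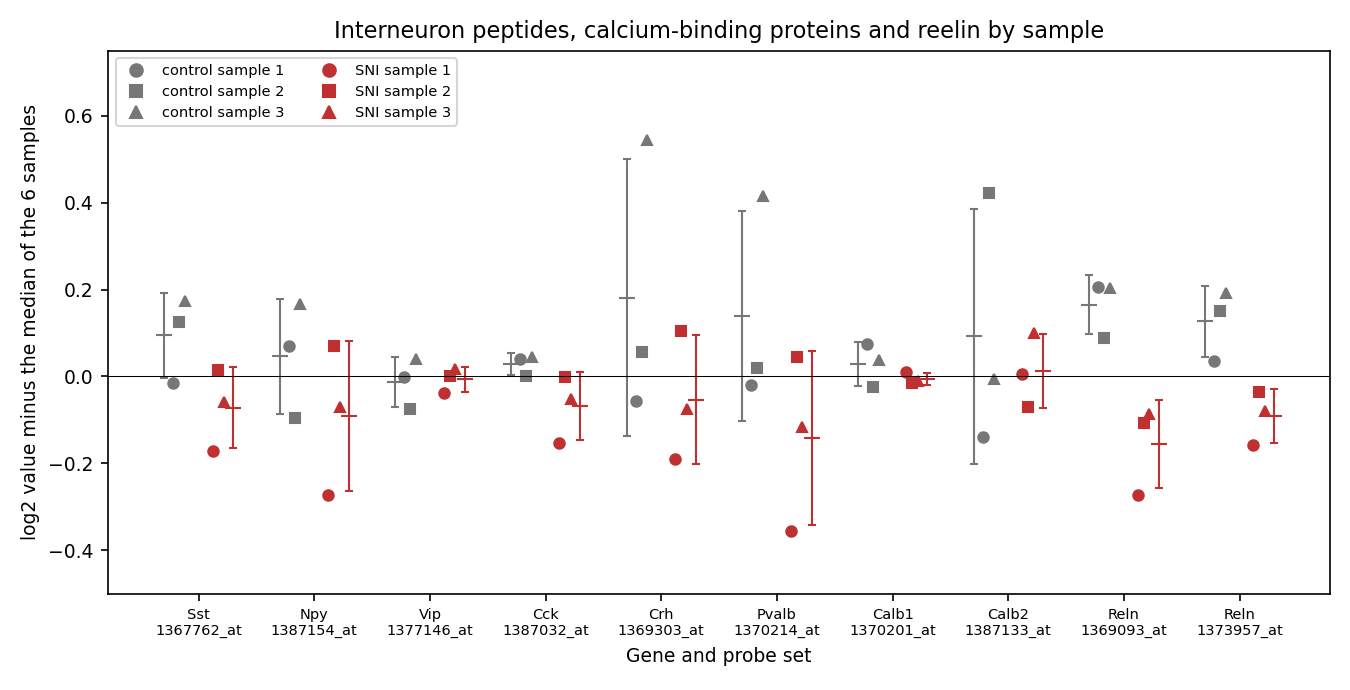
Centred log2 values (y axis; the median of the 6 samples is 0) for each gene and probe set (x axis). Grey marks are the control samples and red marks the SNI samples, the mark shape is the sample number, and the bars are the mean and SD of 3 samples; both probe sets of Reln keep the groups apart, with SNI samples at −0.036 or lower and control samples at 0.036 or higher.

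Taken in order from the most negative difference, the genes were Pvalb, Reln, Crh, Sst, Npy, Cck, Calb2, Calb1 and Vip, and each step between neighbours in this order was smaller than the SE of either. Of the 9 genes, 8 had a difference below 0, as did 54.8% of all genes. The median difference was −0.14 for the 9 and −0.011 for all genes. None of the 9 passed an adjusted p of 0.05, and 0% of all genes did. At an unadjusted p under 0.05 there was 1 of 9 genes, Reln, against 13.2% of all genes, of which 9.19% lay in the downward and 3.96% in the upward direction. By probe set, 2 of 10 had an unadjusted p under 0.05, both of Reln, against 13.1% of all probe sets and 7.47% in the downward direction. At an adjusted p under 0.05 there was 0 of 10 against 0.0322% of all probe sets. The groups did not overlap for 2 of 9 genes, Reln and Cck, both lower in the SNI group, against 13.7% of all genes lower without overlap. By probe set this was 3 of 10, against 11.2% of all probe sets in the downward direction and 19.6% in either. The array methods name limma, as used here. With the methods' t-test, which is named there without saying for which data, the count was also 1, again Reln.

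**Figure D2:**
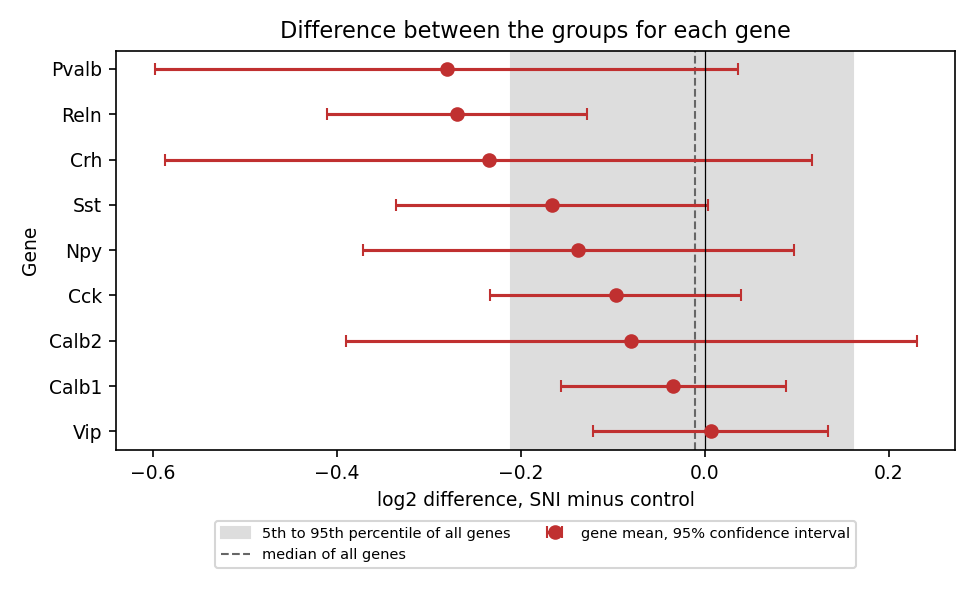
Log2 difference, SNI minus control (x axis), for each of the 9 genes (y axis), as the gene mean with its 95% confidence interval from limma. The grey band spans the 5th to the 95th percentile of all 14217 genes (−0.21 to 0.16) and the dashed line is their median; the interval of Reln (−0.41 to −0.13) is the one that leaves out 0.

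The genes shared a pattern across single samples. Control sample 3 was the highest of the 6 for 7 of 9 genes, where it was the highest for 18.6% of all genes, and SNI sample 1 was the lowest for 6 of 9, where it was the lowest for 18.3% of all genes. Among 15 general neuronal genes SNI sample 1 was the lowest for 10 and control sample 3 the highest for 4. For 29 other genes of GABA interneurons these counts were 10 and 11. Low values in SNI sample 1 were therefore not particular to the 9 genes. The mean of the 9 genes was −0.15, 0.0084 and −0.039 in the SNI samples, in the order 1 to 3, against 0.0080, 0.061 and 0.18 in the control samples. SNI sample 2 and control sample 1 were therefore nearly equal. Both end samples were also extreme in the hybridization controls, bacterial and bacteriophage transcripts added in fixed amounts before hybridization. The mean of these 18 probe sets was −0.047, −0.20 and −0.22 in the control samples, again in the order 1 to 3, against 0.19, 0.054 and 0.097 in the SNI samples. Within the SNI group 6 of 9 genes (Sst, Npy, Cck, Crh, Pvalb and Reln) followed exactly the opposite order of the hybridization controls, as did 20.1% of all genes. Within both groups at once, Sst, Crh and Pvalb did, and 2.47% of all genes.
With the hybridization controls as a covariate the differences of Sst (0.13, SE 0.12), Npy (0.080, SE 0.22), Crh (0.38, SE 0.25), Pvalb (0.28, SE 0.22) and Calb2 (0.22, SE 0.29) lay above 0, and 3 of 9 genes remained below 0, among them Reln at −0.12 (SE 0.13, unadjusted p = 0.382). The 2 probe sets of Reln differed in sign in this fit, at −0.25 on 1369093_at and 0.011 on 1373957_at. The covariate itself separates the groups without overlap, and the errors are larger than without it. Without the 2 arrays with the highest and the lowest hybridization controls, SNI sample 1 and control sample 3, 6 of 9 genes were below 0. Reln was at −0.20 (unadjusted p = 0.0340), while Sst was at −0.078, Pvalb at −0.036, Npy at 0.013 and Crh at 0.014. The direction of Reln was thus the same in that fit, and those of Npy and Crh were not; this fit was chosen after seeing the data.

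**Figure D3:**
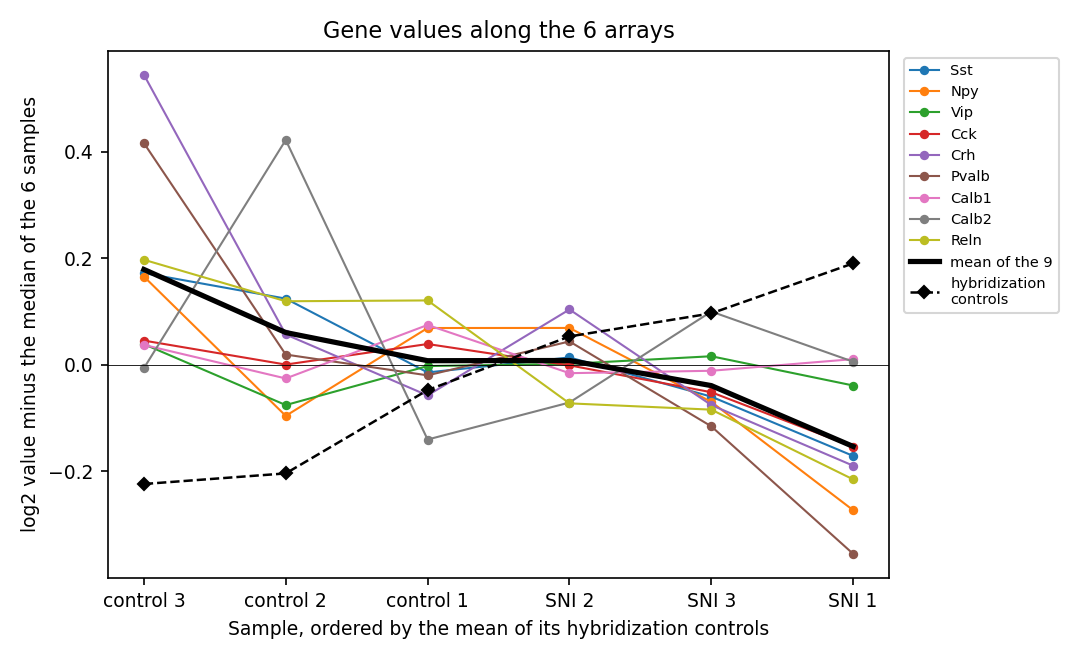
Log2 value minus the median of the 6 samples (y axis) for the 9 genes (colored lines), their mean (black line) and the mean of the 18 hybridization control probe sets (dashed line), over the samples in the order of their hybridization controls (x axis). The mean of the genes goes from 0.18 in control sample 3 to −0.15 in SNI sample 1 while the controls go from −0.22 to 0.19.

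Control sample 3 also stood apart in markers of other tissue. It was the highest sample for 9 of 9 measured oligodendrocyte genes, whose mean was 0.31 there and −0.20 to 0.14 in the other samples, and for 7 of 8 genes of meninges and fibroblasts, whose mean was 0.79 there and −0.28 to 0.27 in the others. The part of these cells in the values of Crh and Pvalb was not tested. Without control sample 3 the count of genes at an unadjusted p under 0.05 was still 1, Reln, at −0.24 (unadjusted p = 0.00987). In SNI sample 1 the immediate early genes, which report recent neuronal activity, were the lowest of the group as well, with a mean over 13 genes of 0.075 against 0.56 in SNI sample 2, 0.36 in SNI sample 3 and a range of −0.19 to −0.18 over the control samples.

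**Figure D4:**
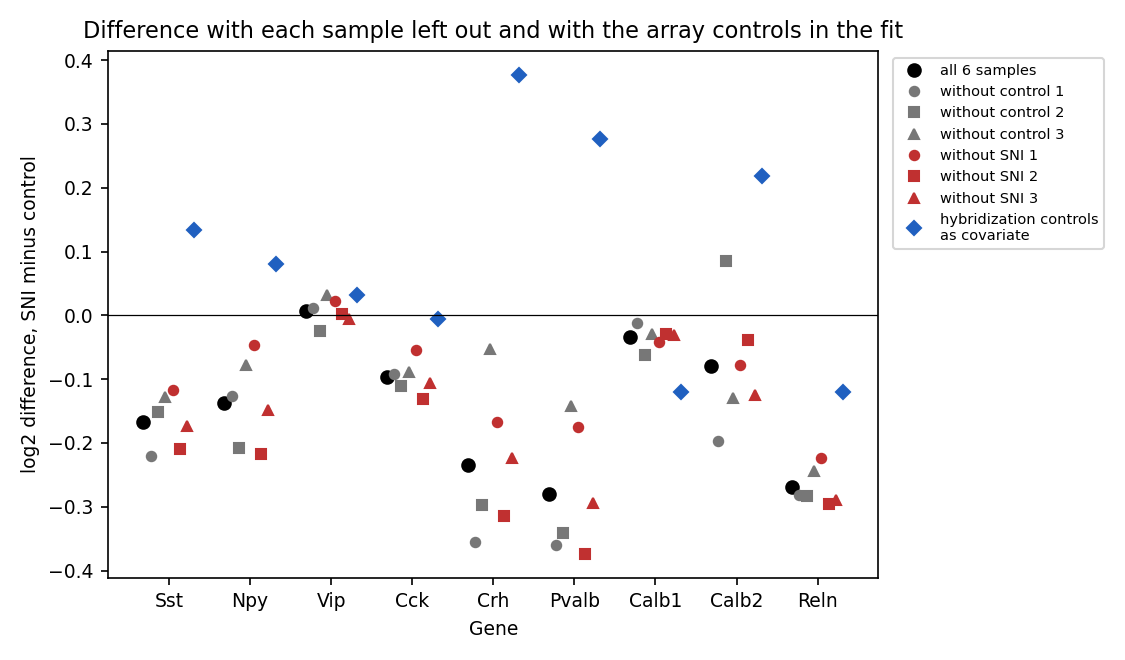
Log2 difference, SNI minus control (y axis), for the 9 genes (x axis) with all 6 samples (black), with each sample left out in turn (grey and red) and with the hybridization controls as a covariate (blue). Reln stays between −0.30 and −0.22 with any 1 sample left out, while Crh ranges from −0.35 to −0.053.

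The measured receptors of these peptides and the proteins that bind or transmit them did not share a direction. Of 19 listed, 16 were measured, 6 below and 10 above 0, with a median of 0.034. Cckar, Crhr1 and Crhr2 had no probe set of their own, so neither listed receptor of Crh has a value here. At an unadjusted p under 0.05, 2 of 16 were lower and none was higher, against 9.19% lower and 3.96% higher of all genes, and none passed an adjusted p. Npy1r, the main postsynaptic receptor of neuropeptide Y in cortex, was at −0.071, −0.24 and −0.036 in the SNI samples and at 0.31, 0.11 and 0.036 in the control samples. The groups did not overlap, and the difference was −0.27 (SE 0.09, limma adjusted p = 0.279). Without SNI sample 2 it was −0.21 (unadjusted p = 0.0651), and with the hybridization controls as a covariate it was −0.63 (unadjusted p = 0.00341). Crhbp, a secreted protein that binds and buffers corticotropin-releasing hormone and is made by many Sst cells, was at −0.17, 0.031 and −0.031 in the SNI samples and at 0.42, −0.052 and 0.30 in the control samples. Its groups overlapped through control sample 2, and the difference was −0.28 (SE 0.12, limma adjusted p = 0.370). It ranged from −0.42 without control sample 2, the single leave-out with an unadjusted p under 0.05, to −0.18 without control sample 1, and was −0.42 (unadjusted p = 0.169) with the covariate.

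Of 11 measured genes of the machinery that cuts and packs peptides into vesicles, 4 were lower at an unadjusted p under 0.05 and none was higher, against 9.19% and 3.96% of all genes, with a median of −0.019. Pcsk2, the convertase that cleaves many neuropeptide precursors, was at −0.30 (SE 0.06, limma adjusted p = 0.175), and Scg5, its chaperone, at −0.17 (SE 0.05). The granins Scg2 and Chgb were at −0.24 (SE 0.10) and −0.14 (SE 0.06). For all 4 every SNI sample lay under every control sample, against 13.7% of all genes. They were picked by an unadjusted p under 0.05, which favors genes whose groups lie apart. None of the 4 passed an adjusted p. Without SNI sample 1, Scg5 was at −0.14 (unadjusted p = 0.0634) and Scg2 at −0.23 (unadjusted p = 0.0898), and Scg2 also missed 0.05 when SNI sample 3 (−0.22) or control sample 3 (−0.13) was left out. In the fit with the array controls as covariate Pcsk2 was at −0.24 (unadjusted p = 0.113), Scg5 at −0.091 (unadjusted p = 0.485) and Scg2 at −0.064 (unadjusted p = 0.773), so that none of these 3 kept an unadjusted p under 0.05.

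Of 21 measured calcium sensors and buffers with EF-hands, the fold shared by Pvalb, Calb1 and Calb2, 5 were lower and none was higher at an unadjusted p under 0.05, against 9.19% and 3.96% of all genes, and the median was −0.070. Kcnip4, a subunit of A-type potassium channels, was at −0.24 (SE 0.06, limma adjusted p = 0.2099), Necab1 at −0.24 (SE 0.06) and Hpcal1 at −0.20 (SE 0.07). Without SNI sample 2 Hpcal1 was at −0.16 (unadjusted p = 0.0659). With the hybridization controls as a covariate they were at −0.40, −0.40 and −0.38, each with an unadjusted p under 0.05.

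Of 38 other genes of GABA interneurons 29 were measured, with a median of −0.034, 17 below and 12 above 0. At an unadjusted p under 0.05, 4 were lower and 1 was higher, against 9.19% and 3.96% of all genes. The 2 with the smallest p encode peptide precursors. Penk, the precursor of enkephalins, was at −0.15, −0.19 and −0.18 in the SNI samples and at 0.15, 0.26 and 0.28 in the control samples, with a difference of −0.40 (SE 0.06, limma adjusted p = 0.127). Tac1, the precursor of substance P, was at −0.27, −0.19 and −0.18 in the SNI samples and at 0.20, 0.18 and 0.47 in the control samples, with a difference of −0.50 (SE 0.09, limma adjusted p = 0.143). For both, the samples within a group lay closer together than the groups, and neither passed an adjusted p. With the hybridization controls as a covariate Penk was at −0.30 (unadjusted p = 0.0460) and Tac1 at −0.27 (unadjusted p = 0.163). Kcns3 and Kcnc2, potassium channel subunits found in Pvalb cells, were at −0.23 (SE 0.06; −0.20 with an unadjusted p = 0.232 with the covariate) and −0.20 (SE 0.08), and Nos1, the neuronal nitric oxide synthase, which marks a subset of Sst and Npy cells, was at 0.20 (SE 0.06). The enzymes of GABA synthesis, Gad1 and Gad2, were at −0.23 (SE 0.11, unadjusted p = 0.0704) and −0.20 (SE 0.09, unadjusted p = 0.0506); they were named for their role and after their values were seen. Control sample 3 was the highest sample for both.

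**Figure D5:**
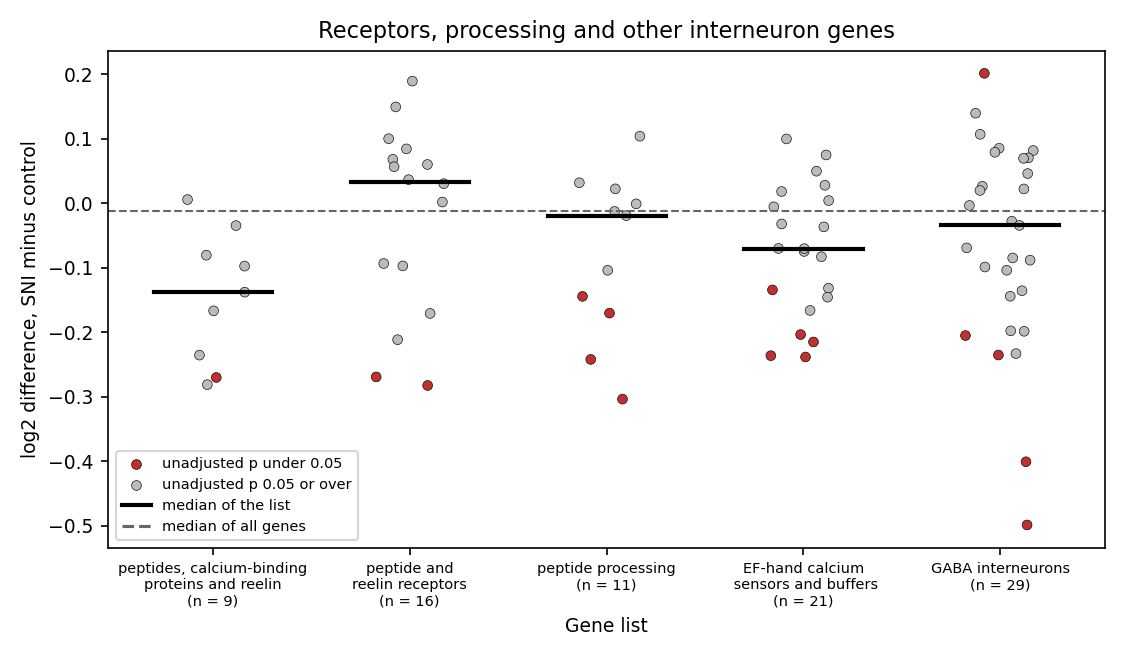
Log2 difference, SNI minus control (y axis), for the 9 genes and for the related gene lists (x axis); each point is a gene mean, red where the unadjusted limma p is under 0.05, the bar is the median of the list and the dashed line the median of all genes. The 9 genes have a median of −0.14, the receptors one of 0.034, and the 2 lowest points are Tac1 and Penk.

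For comparison, 3.96% of all genes were higher and 9.19% lower at an unadjusted limma p under 0.05. At this threshold excitatory neuron genes had 2 higher and 2 lower of 15 measured (median 0.015). General neuronal genes had 2 higher and 4 lower of 15 (median −0.12), and the mean of the list was −0.11 in SNI sample 1 and 0.097 in control sample 3. Immediate early genes had 8 higher of 13 (median 0.23), microglia 8 of 12 (0.24), oligodendrocyte precursors 3 of 6 (0.16), endothelium 2 of 8 (0.089) and astrocytes 1 of 9 (0.095), with none lower. Oligodendrocytes had 1 lower of 9 (median −0.17). The list of the border with striatum had 1 lower of 11, with 6 below and 5 above 0 (median −0.0042). The lower gene was Ppp1r1b at −0.26 (SE 0.06, limma adjusted p = 0.207). Whether tissue of that border had a part in the values of Penk and Tac1 was not tested. Meninges and choroid plexus had none of 8 and none of 6 (−0.034 and 0.030).

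The genes nearest to the 3 with the largest differences, by the root mean square difference of their values over the 6 samples, were found as a description. For Reln they were Ddx3x-ps1 (0.029) and Ptrhd1 (0.031), for Pvalb they were Cdc42ep2 (0.043) and Camkmt (0.073), and for Crh they were Mark1 (0.065) and Gad1 (0.086). The profile of Gad1 lay between −0.19 and 0.038 in the SNI samples and between 0.0039 and 0.41 in the control samples.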

How the data were processed

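Affymetrix rat genome arrays of 6 samples (3 SNI, 3 control) were used. The authors applied RMA, quantile normalization and a log2 transform, and the deposited log2 values are also centred on each probe set's median over the 6 samples (0 within 4.78e-07), which the sources used here do not describe. The sources give no tool versions. Of 31099 probe sets, 57 array controls were left out. Symbols came from the platform annotation, and a gene is the mean of the probe sets with its symbol alone. Each probe set and gene mean was fitted with lmFit and eBayes (R 4.3.3, limma 3.58.1), SNI minus control, two-sided, without covariate, and p was adjusted by Benjamini-Hochberg over every probe set or gene. With 3 samples a group, exact permutation p-values go no lower than 0.1, and the number of arrays limits the precision. The 10 genes and the 15 gene lists were chosen with earlier results of these data known. Named list genes are those with the smallest p, up to 3 a list, and receptors with an unadjusted p under 0.05; Scg2, Chgb, Kcnc2 and Nos1 complete small counts. The fits were tested on simulated data with noise drawn independently for each probe set or gene and each sample. Patterns shared by many genes within a sample were therefore not covered. Plots used Python 3.11.15 and matplotlib 3.10.9. Alternatives were repeated quantile normalization, aligned medians, robust variances, the methods' t-test and the hybridization controls as covariate. The methods name that t-test without saying for which data, and their array section names limma. Further alternatives were the replicate number as a block, medians of probe sets, probe sets with 1 symbol only and each sample left out. Leaving out 2 arrays with extreme hybridization controls was chosen after seeing the data.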

Additional observations from a re-analysis of the deposited data

Results flagged for a closer look

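The hybridization controls, which measure no rat gene and entered the fits only as a covariate and to pick 2 arrays to leave out, were higher on the SNI arrays in all 18 probe sets, by 0.27 on average on the log2 scale. The means per array lay between 0.054 and 0.19 in the SNI group and between −0.22 and −0.047 in the control group, and their order within each group ran opposite to that of Sst, Crh and Pvalb.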

How the results depend on the processing

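Without a covariate, the signs of Reln, Pvalb, Sst, Cck and Calb1 were the same in each setting run, and no gene of the 9 passed an adjusted p of 0.05 in any. With the hybridization controls as covariate the differences were 0.13 for Sst, 0.080 for Npy, 0.38 for Crh, 0.28 for Pvalb, 0.22 for Calb2, 0.011 for Reln on 1373957_at (−0.25 on 1369093_at), −0.0075 for Cux2 and −0.0054 for Map2, 0 of 9 genes had an unadjusted p under 0.05, and 2 of all genes passed an adjusted p; Crhbp, Pcsk2, Scg5, Scg2, Tac1 and Kcns3 also missed an unadjusted p of 0.05. Alternatives were not run for Chgb, Kcnc2, Nos1 and Gad2, nor for Gad1. Leaving out 1 sample, Vip ranged from −0.025 to 0.032 (−0.0055 without SNI sample 3, −0.025 without control sample 2) and Calb2 from −0.20 to 0.085 (the latter without control sample 2); 1 to 4 of the 9 genes had an unadjusted p under 0.05 (4 without control sample 1, 3 without SNI sample 2), between 0 and 35 probe sets passed an adjusted p (0 without SNI sample 3, 1 without SNI sample 2 or control sample 3, 35 without control sample 2), and between 0 and 4 genes did (4 without SNI sample 1, 1 without any 1 control sample). Without the 2 arrays of extreme hybridization controls Npy was at 0.013 and Crh at 0.014, and 0 probe sets passed. The 10 probe sets that passed an adjusted p became 66 with quantile normalization repeated, 0 with the methods' t-test (where Npy1r, Crhbp and Scg2 missed an unadjusted p of 0.05) and 0 among probe sets with 1 symbol. With the replicate number as a block, 3 of 9 genes had an unadjusted p under 0.05 (Sst 0.0391, Pvalb 0.0352 and Reln 0.00499), but deviations of same-numbered samples were not correlated (0.0085, −0.0098 and −0.069), so they share only a number. Signal over background cannot be read from centred values.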
